A study of Drosophila melanogaster with 6 samples.

Results

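Runs of the Drosophila melanogaster reference that held no reads in any of 4 ovary chromatin libraries are described here. The members were chosen by the read counts themselves: a run is 3 or more consecutive 100 bp windows with a count of 0 in all 4 libraries, on the arms X, 2L, 2R, 3L, 3R and 4 of build dm3. There were 2905 such runs, which held 71653 of 1203812 windows (5.95%), or 7165.3 kb. Because the counts chose the runs, their emptiness is a description and was not tested.

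The libraries came from ovaries of virgin females under 6 h old, fixed in 1.8% formaldehyde, of a su(Hw)f mutant (strain label su(Hw)fv) and of Canton S, the wild type. The Su(Hw) protein is a DNA-binding part of the gypsy insulator, and the series mapped where it binds. Each genotype gave 1 preimmune library, from chromatin precipitated with serum lacking the antibody, and 1 input library of sheared chromatin. The 2 libraries made with the antibody are not analysed here. The strains differ in more than su(Hw), so mutation and background cannot be told apart, and the labels do not say how many animals were pooled.

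A reference arm is one strain's sequence, and part of it is repeated. Transposable elements are DNA segments that copy themselves and insert at many sites. In Drosophila, families with long terminal repeats, such as roo and copia, and families without them, such as jockey and the F element, leave near-identical copies scattered through the arms and older, broken copies piled up near the centromeres. Gene families in tandem, of which the histone array is the best known, are also repeated. A short read from such DNA matches several places, and many read mappers then discard it. A stretch can also be empty because the reference holds unknown bases or because both strains lack the DNA. No dm3 sequence or annotation was used, so which of these applies to a run was not tested, and no run is given a gene or element name.

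Depth set how firmly a run can be called empty. The libraries held 11861422 reads on these arms for wild-type preimmune, 13713068 for wild-type input, 19741807 for mutant preimmune and 20288267 for mutant input. Their median windows held 9, 11, 15 and 14 reads in that order, and 55 reads over the 4 together. A count of 0 allows up to 3 reads. In the shortest possible run, 300 bp, that limit is 11.1% of the median level in wild-type preimmune and 1.82% over the 4 libraries. It covers counting error only.

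A window at 0 in all 4 libraries is by definition at 0 in each, so a single library cannot have fewer empty windows than the set. Wild-type preimmune was at 0 in 9.99% of windows, wild-type input in 7.70%, mutant preimmune in 8.88% and mutant input in 8.86%. All 4 were at 0 together in 76504 windows (6.36%), and 93.7% of these lay in runs. Single libraries had from 92683 (wild-type input) to 120210 (wild-type preimmune) empty windows, so most of those in each library were empty in all 4. The windows empty in all 4 were mostly contiguous. Outside the runs lay 3099 single empty windows and 876 stretches of 2.

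The threshold of 3 windows fell inside a smooth decline. Just inside it were 456 runs of 300 bp, and just outside it the 876 stretches of 200 bp. In the poorer of the windows beside them, runs of 300 bp had a median of 3 reads over the 4 libraries and stretches of 200 bp had 4. A single read in that window kept 261 of the 876 stretches from reaching 300 bp.

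Most runs were short, and most of the empty length lay in long ones. The median run was 900 bp, with quartiles of 400 and 3000 bp. Runs of 0.3 to 0.4 kb numbered 749 and those of 0.5 to 0.9 kb numbered 798, but they held only 3.54% and 7.35% of the length. The 448 runs of 5 to 9.9 kb were 15.4% of members and 43.7% of the length. Another 42 runs were 10 to 19.9 kb long and 22 were 20 kb or longer, and these 22 held 11.3% of the length. The longest 343 runs, 11.8% of all, covered 50.05% of it.

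Lengths of several kb were not spread evenly but recurred at certain values. The text names 7 ranges of length, picked after the counts had been seen, so the excess in them is a description. They were 4.6 to 4.7 kb with 42 runs, 5.0 to 5.3 kb with 83, 6.1 to 6.4 kb with 41, 6.9 to 7.0 kb with 27, 7.3 to 7.5 kb with 76, 8.4 to 8.6 kb with 20 and 9.0 to 9.2 kb with 41. Most spaces between them were thinner, with 24 runs at 5.5 to 5.9 kb and 32 at 7.6 to 8.0 kb. Past the last range, the space at 9.3 to 9.7 kb held 12. Per step of 100 bp, the range 7.3 to 7.5 kb held 25.3 runs and the space 9.3 to 9.7 kb held 2.4, the extremes of the ranges and spaces compared. That space was uneven, with 9 runs at 9.4 kb and 0 at both 9.6 and 9.7 kb. The weakest of the 7, 8.4 to 8.6 kb, held 6.67, close to the 6.4 of the space at 7.6 to 8.0 kb. Its steps at 8.4 and 8.5 kb held 10 runs each, but its step at 8.6 kb held 0. Just below it were 8 runs at 8.2 kb and 7 at 8.3 kb. Other single steps between ranges varied, with 13 runs at 5.4 kb and 11 at both 4.8 and 7.2 kb, but 5 at 4.9 kb and 2 at 8.1 kb. The weakest range was therefore not above all lengths between ranges. Together the 7 ranges cover 41.2% of the steps from 4.5 to 9.5 kb and held 330 runs, against 182 in the rest. A window at the edge of an empty stretch can catch reads from the covered DNA beside it, and a single read inside the stretch parts it. A run may therefore be shorter than the stretch it belongs to, and much shorter where the stretch is parted.

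**Figure D1:**
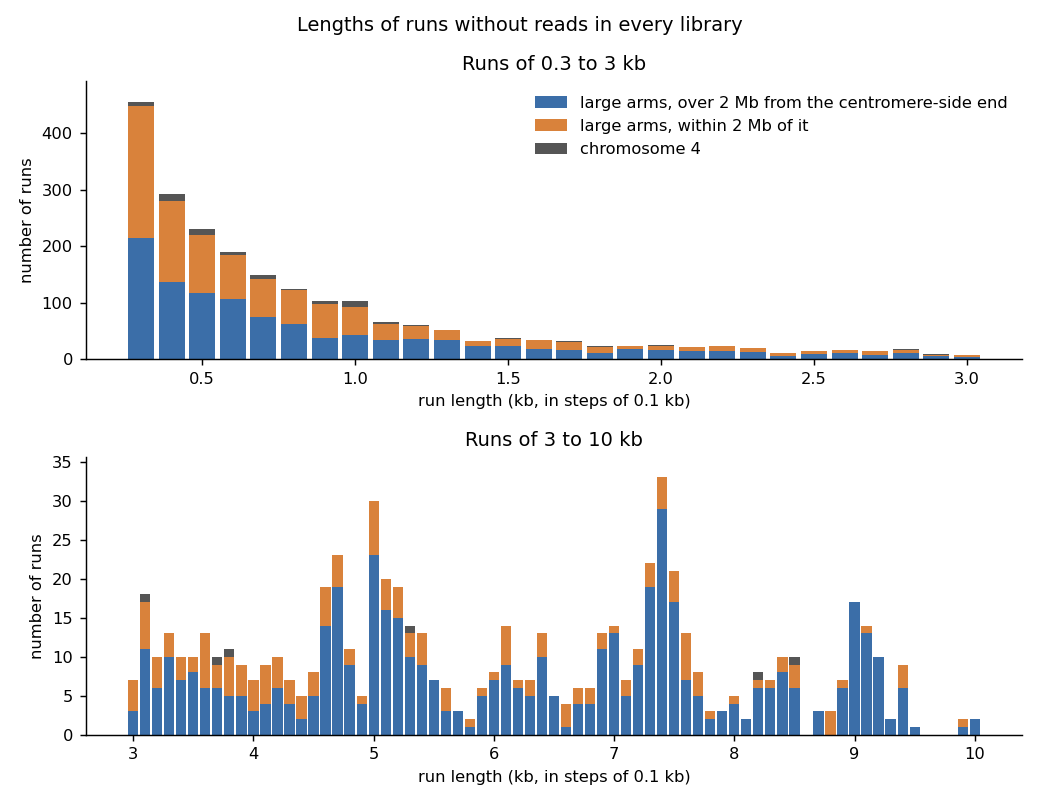
Number of runs (y axis) by length in kb (x axis, steps of 0.1 kb), from 0.3 to 3 kb above and from 3 to 10 kb below. Colours divide the large arms at 2 Mb from the centromere-side end and show chromosome 4 apart. Short runs decline smoothly from 456 at 0.3 kb, whereas the lower panel has separate peaks, the highest at 7.4 kb.

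The recurring lengths were seen on each large arm. Runs of 7.3 to 7.5 kb numbered 14 on X, 18 on 2L, 13 on 2R, 17 on 3L and 14 on 3R. Runs of 5.0 to 5.3 kb numbered 21, 18, 9, 17 and 17 in the same order, and those of 4.6 to 4.7 kb 7, 10, 9, 11 and 5. Those of 9.0 to 9.2 kb were less even, with 7, 6, 3, 13 and 12. The spaces between ranges also held runs on every large arm, for instance 10, 2, 3, 6 and 3 at 5.5 to 5.9 kb, so presence on each arm does not set the ranges apart. Chromosome 4 had 2 runs in the 7 ranges, 1 at 5.0 to 5.3 kb and 1 at 8.4 to 8.6 kb.

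**Figure D2:**
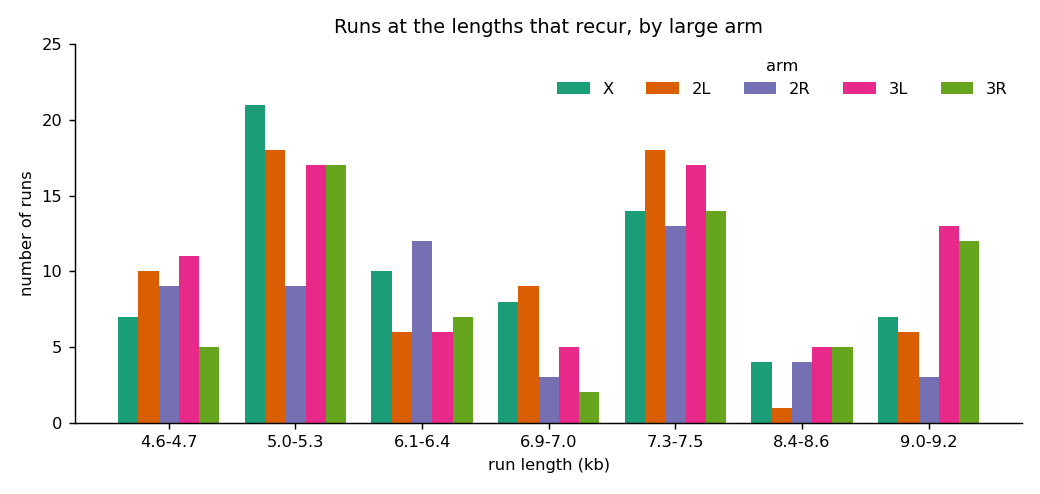
Number of runs (y axis) in each of 7 ranges of length in kb (x axis), with 1 bar per large arm. Every range is filled on every large arm, from 1 run (8.4 to 8.6 kb on 2L) to 21 (5.0 to 5.3 kb on X).

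Among runs of this size class, the recurring lengths made up a larger share in the interior of the arms than at their centromere-side ends. The interior here is everything on the large arms over 2 Mb from the end that faces the centromere. Per Mb they were nevertheless denser at the ends, with 5.8 runs in the 7 ranges against 2.48 in the interior. Of all runs of 4.5 kb or more, 76.6% were interior. The share was 97.6% at 9.0 to 9.2 kb, 88.9% at 6.9 to 7.0 kb and 85.5% at 7.3 to 7.5 kb. It was 78.6% at 4.6 to 4.7 kb, 77.1% at 5.0 to 5.3 kb, 73.2% at 6.1 to 6.4 kb and 70% at 8.4 to 8.6 kb, so 4 of the ranges were near or below the share of the whole class. Among interior runs of 4.5 to 9.5 kb, 66.8% fell in the 7 ranges, against 55.2% of those within 2 Mb of the end. The ranges were picked on the pooled runs, most of them interior. The difference may therefore come from that choice, and it was not tested. Runs chosen on the wild-type pair of libraries alone put 62.0% of that size class in the ranges, and runs chosen on the mutant pair alone put 63.6% there. Most of those runs are the same DNA, so the agreement is not independent support.

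An example from each of 3 ranges shows what these runs look like in the counts. Each is the interior run whose flanks are nearest the median of its range, a choice made after the values were seen. The 7.3 kb run chr2L:4601801-4609100 had no reads, and the 1 kb before it held 63 wild-type preimmune reads, 76 wild-type input reads, 174 mutant preimmune reads and 75 mutant input reads. The 1 kb after it held 137, 107, 192 and 157. Lists of 4 values from here on keep that order. The level before it was below the library median except in mutant preimmune, and the level after it was above the median except in wild-type input. None of the 20 windows was empty in all 4 libraries, so the run is an abrupt hole in covered DNA.

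The 5.1 kb run chr2L:14803901-14809000 had 120, 115, 160 and 107 reads in the 1 kb before it, and 98, 111, 151 and 109 after it. The 9.1 kb run chr2L:2100401-2109500 had 168, 137, 173 and 133 before and 78, 97, 85 and 140 after. Neither had an empty window within 1 kb. The next run lay 35.5 kb, 19.3 kb and 2.7 kb away in these 3 cases.

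Levels at the edges differed by place. Beside interior runs of 4.5 kb or more, the first 100 bp outside stood at a median of 0.333, 0.273, 0.267 and 0.214 times the median of each library. The second window was at 0.889, 0.818, 0.867 and 0.714, and the fifth at 1.0 in all 4. Interior runs under 1 kb had softer edges, with the second window at 0.56, 0.55, 0.60 and 0.50. By construction the first window holds at least 1 read in some library.

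Within 2 Mb of the centromere-side end the libraries did not return to their median. The second window outside was at 0.222, 0.182, 0.133 and 0.107, and at 2 kb the levels were still 0.778, 0.636, 0.667 and 0.571. On chromosome 4 the levels at 2 kb were 0.944, 0.545, 0.70 and 0.429, the highest in wild-type preimmune. That library was above its median at some shorter distances, with 1.11 at both 1100 and 1200 bp. Each other library stayed below its own median there up to 2 kb. Other runs were cut out of these averages, so where the level was lower it is that of the covered DNA between runs.

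**Figure D3:**
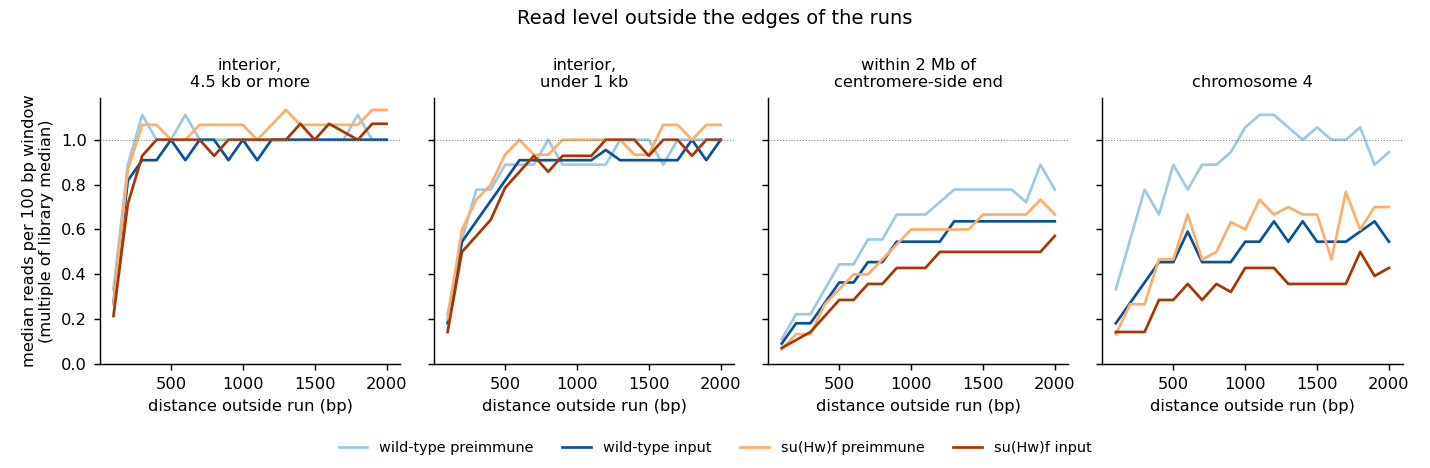
Median reads per 100 bp window as a multiple of the library median (y axis) against distance outside the run in bp (x axis), for 4 classes of run, with 1 line per library. Lines reach 1 (dotted) within 500 bp beside long interior runs and stay below it within 2 Mb of the centromere-side end.

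The runs were concentrated at the centromere-side ends. The last 2 Mb of the 5 large arms, 10 Mb in all, held 1180 runs at 118 per Mb and 21.8% of its windows were in runs. The other 109 Mb held 1640 runs at 15.0 per Mb, with 4.38% of windows. Of all run length on the large arms, 31.3% lay in those 2 Mb. Runs there were shorter, with a median of 700 bp against 1100 bp in the interior, and 9.66% of them reached 5 kb against 23.9%. Short runs thus made up a larger share of the runs at the centromere-side ends, and long runs a larger share in the interior. Runs of 5 kb or more numbered 114 in the 10 Mb at the ends and 392 in the other 109 Mb. Per Mb, long runs were therefore also denser at the ends.

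The first Mb from the centromere-side end was 43.4% empty on 3L, 37.0% on X, 32.5% on 2R and 28.9% on 2L. On 3R it was 7.53%. Among the 107 other full 1 Mb bins over 2 Mb from that end, the median was 3.85% and the range 0.540% to 18.9%. On 3R the first Mb was above every one of that arm's 25 other bins, whose highest was 5.91%, but far below the other arms. The second Mb was 21.8% on 3L and 20.3% on 2L, above every other bin of those arms. It was 15.0% on 2R, 7.65% on X and 3.87% on 3R, inside the range of those arms' other bins.

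**Figure D4:**
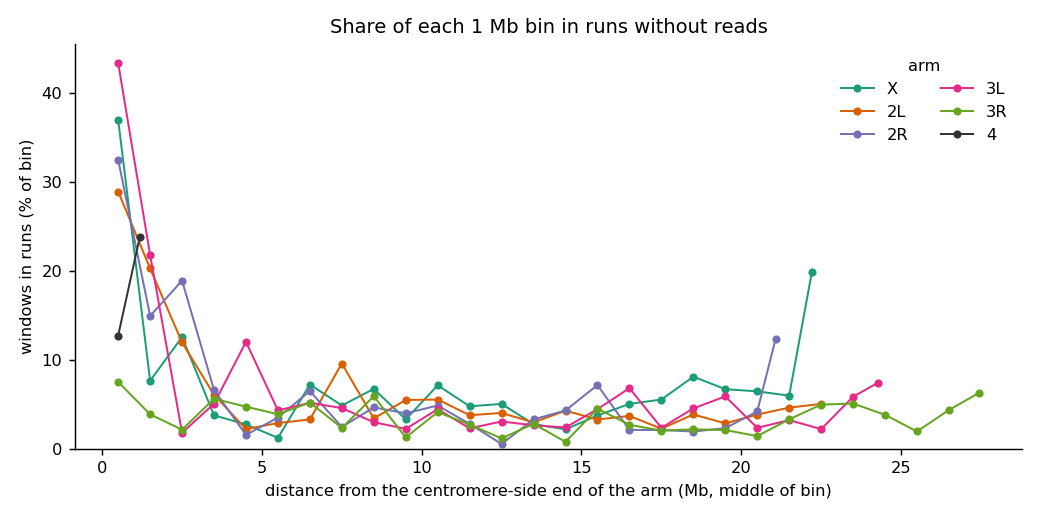
Percent of windows in runs (y axis) by distance from the centromere-side end in Mb (x axis), in 1 Mb bins with a shorter last bin, 1 line per arm. X, 2L, 2R and 3L start between 28.9% and 43.4% and fall to a few percent, while 3R starts at 7.53%. Bins under 0.1 Mb are not drawn.

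Arms differed in how many runs they held. Chromosome 4, a small chromosome that is largely heterochromatin, had 85 runs at 62.9 per Mb and 15.6% of its windows in runs. Without the 51.7 kb run at its first window and the 31.6 kb run at its last, the figure was 9.46%. 3L had 741 runs at 30.2 per Mb, 2R 611 at 28.9, X 592 at 26.4 and 2L 550 at 23.9, and between 6.29% and 7.09% of their windows were in runs. 3R had 326 at 11.7 per Mb and 3.53%. Its runs were longer, with a median of 1300 bp against 800 to 900 bp on the other large arms, and 26.4% of them reached 5 kb.

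Full bins over 2 Mb from the centromere-side end were ranked by their share in runs, and the first 5 are named here. chr2R:2000001-3000000 was 18.9% empty with 78 runs, chrX:19422901-20422900 12.6% with 32, chr3L:19543601-20543600 12.03% with 29, chr2L:20011601-21011600 11.96% with 46, and chr2L:15011601-16011600 9.59% with 9. In the last of these, 1 run of 74.3 kb made most of the total. In the order named, the bins lay 2 to 3, 2 to 3, 4 to 5, 2 to 3 and 7 to 8 Mb from the centromere-side end. Those at 2 to 3 Mb directly adjoin the 2 Mb at that end, where runs were concentrated. The partial bins at the other tip of the arms were 19.9% empty on X (0.423 Mb), 44.0% on 2L (0.0116 Mb, 1 run), 12.3% on 2R (0.146 Mb, 2 runs), 7.41% on 3L (0.544 Mb) and 6.31% on 3R (0.905 Mb). The full bin with the fewest empty windows was chr2R:12000001-13000000, with 3 runs and 0.540%.

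Runs clustered. Of 2899 spaces between neighbouring runs, 587 were a single window and 1292 (44.6%) were under 2 kb, with a median of 3.6 kb. Stretches of at least 5 runs under 2 kb apart numbered 107 and held 29.2% of all runs. Of these, 79 lay within 2 Mb of a centromere-side end, 24 in the interior and 4 on chromosome 4. Joining runs across a single window left 2318 runs, and the spaces and stretches given here were counted before joining. At the other extreme, 369 spaces were 100 kb or longer. The longest was chr2R:7361001-8368700, 1007.7 kb with medians of 9, 12, 18 and 17 reads per window. Next came chr3R:10073501-10787300 with 713.8 kb and chr3R:18710601-19341300 with 630.7 kb. The last had no window empty in all 4 libraries.

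The longest clustered stretch was chrX:21657801-21799500, 141.7 kb with 24 runs and 93.5% of its length empty. The few covered windows held 605, 403, 620 and 444 reads. Second was chr2L:21416401-21556000, 139.6 kb with 13 runs and 96.0% empty, which held 163, 160, 212 and 174 reads. The tandem histone genes are known to lie in the centromere-side part of 2L, and whether this stretch is that array was not tested. The last of these was chr2R:2229901-2323100, 93.2 kb with 20 runs and 92.9% empty, which held 123, 147, 256 and 183 reads. The middles of these stretches lay 0.694, 1.53 and 2.28 Mb from the centromere-side end of their arms.

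The single windows between runs held few reads. Their median was 2 reads over the 4 libraries, 226 of the 587 held exactly 1, and the fullest held 82. Reads came from wild type alone in 274, from the mutant alone in 145 and from both in 168. Wild type gave 39.0% of all reads on the arms and 45.4% of those in these windows. Some split very long runs. 1 mutant input read at chr2L:21486701-21486800 parted runs of 69.7 and 52.6 kb, and 1 wild-type input read at chr2R:2278201-2278300 parted runs of 26.1 and 25.8 kb. At chr4:1320201-1320300, 3 mutant preimmune and 7 mutant input reads parted runs of 35.0 and 31.6 kb, with none in wild type.

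The 10 longest runs ranged from 32.6 to 78.8 kb and held 7.29% of all run length. The longest, chrX:21683901-21762700, lay 0.700 Mb from the centromere-side end. The 1 kb before it held 54, 39, 90 and 54 reads, with 4 of its 10 windows empty in all 4 libraries. The 1 kb after it held a single read, in mutant input, so one side was partly covered and the other nearly empty. The second, chr2L:15653201-15727500 (74.3 kb), lay 7.32 Mb from that end in otherwise covered DNA, with the next run 59.8 kb away. It had 95, 101, 109 and 180 reads in the 1 kb before and 49, 55, 89 and 50 in the 1 kb after. It was the only one of the 10 with no empty window in the 1 kb on either side.

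Next came the 2L pair of 69.7 and 52.6 kb parted by 1 read. They were followed by the 51.7 kb at the first window of chromosome 4, and chr4:1285201-1320200 (35.0 kb) also belonged to the 10. chr3L:19701601-19750300 (48.7 kb) had 76, 139, 207 and 235 reads in the 1 kb before it but 8, 5, 0 and 2 after. chrX:15907101-15948800 (41.7 kb) had 72, 57, 115 and 86 before and 0, 1, 0 and 0 after. chrX:100201-137500 (37.3 kb), near the tip of X, had 28, 1, 0 and 6 before and 108, 37, 43 and 31 after. chr3R:8293901-8326500 (32.6 kb) was the longest on 3R and chr2R:2252101-2278200 (26.1 kb) the longest on 2R.

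Runs chosen in 2 libraries were next read in the other 2, which had no part in the choice. The 3028 runs of the wild-type pair covered 7460.3 kb, and 96.9% of their windows were at 0 in both mutant libraries. The mean level there was 1.82% of the median in mutant preimmune and 1.61% in mutant input. The 3140 runs of the mutant pair covered 7684.1 kb, with 94.8% of windows at 0 in wild type and mean levels of 3.15% in preimmune and 2.33% in input. Counted as whole runs, where 1 read anywhere is enough to fail, 71.9% and 55.3% were at 0. The choosing pairs differed in depth, at 25574490 reads for wild type and 40030074 for the mutant, and their part in these shares was not tested.

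Across kinds of library the remaining levels were lower. The 2961 runs of the input pair had 98.5% of windows at 0 in both preimmune libraries, with mean levels of 0.280% of the median in wild type and 0.101% in the mutant. The 3009 runs of the preimmune pair had 98.2% at 0 in both inputs, with 0.232% and 0.161%. None of these runs reached 50% of the median in the other kind of library. Across genotypes 108 of the wild-type runs and 124 of the mutant runs did, and the 20 runs with most reads held 49.7% and 42.8% of the reads. With 1 library per group these differences have no replicate check.

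**Figure D5:**
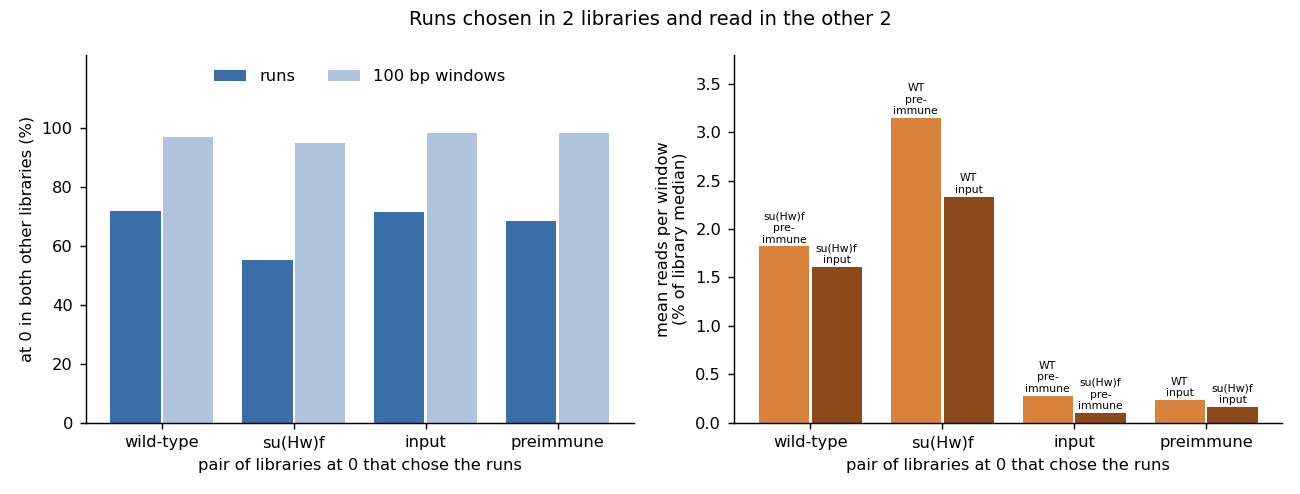
Left, percent of runs and of their 100 bp windows at 0 in both other libraries (y axis), by the pair of libraries that chose the runs (x axis). Right, mean reads per window in each of the other libraries as percent of its median (y axis). Levels are 1.61% to 3.15% across genotypes and 0.101% to 0.280% across kinds of library.

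Some stretches empty in both libraries of 1 genotype held reads in the other. The cases named were picked after the values were seen, and why they differ was not tested. In wild type the first 62.4 kb of 3L were one empty run, while the mutant held 3824 preimmune and 2775 input reads in it. What remained empty in all 4 libraries was 21.3 kb in 4 runs, of which chr3L:1-19700 was the first. chrX:1-19200 was empty in wild type with 750 and 464 reads in the mutant, and 15.8 kb of it in 5 runs was empty in all. In the opposite direction, chrX:2785901-2796300 was empty in the mutant and held 942 and 1079 reads in wild type, and none of it belongs to a run.

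The covered DNA next to runs was compared between libraries in 1 kb windows that hold no part of a run but adjoin one that does. Windows with at least 20 reads over both libraries were used, scaled to the reads on the arms, and called at a 2-fold difference. In wild type, preimmune was higher than input in 14.1% of 3220 such windows (95% Clopper-Pearson interval 12.9% to 15.3%) against 9.75% of all windows, and lower in 6.65% against 10%. In the mutant it was higher in 10.7% of 3215 (9.68% to 11.9%) against 6.82%, and lower in 2.30% against 3.35%. The median log2 ratio of preimmune to input over all mutant windows was 0.14, and scaling by that median changed the mutant shares to 7.37% higher against 4.21% and 3.58% lower against 5.46%, so the levels depend on the scaling while the order against all windows was kept. Windows are neighbours on one genome and not replicates, so the intervals cover counting error at most.

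The shift was smaller in the interior. There preimmune was higher in 10.9% of 2295 windows next to runs in wild type and in 8.71% of 100707 windows away from them, and in the mutant in 7.98% of 2294 and 5.73% of 100646. Summed over interior windows next to runs, the ratio of preimmune to input was 1.06 in wild type (1.06 to 1.07) and 1.05 in the mutant (1.04 to 1.05). Away from runs it was 0.985 and 0.989.

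Between genotypes, mutant input was lower in 5.73% of 3230 windows next to runs (4.95% to 6.59%) against 2.25% of all, and higher in 1.02% (0.704% to 1.43%) against 0.226%. In preimmune, the mutant was lower in 10.7% of 3234 (9.62% to 11.8%) against 6.67% and higher in 5.01% (4.28% to 5.82%) against 5.96%. In the interior the input values were 2.83% lower and 0.696% higher next to runs, and 1.59% and 0.120% away from them. Covered DNA beside the runs was thus past 2-fold more often than the rest in this single pair of inputs, in both directions. The inputs together held 247 reads per window next to runs and 298 per window over all tested, and the part of this lower depth was not tested.

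The heterochromatin scaffolds, assembled apart from the arms, held far more of the same. By the same rule 42.9% of XHet, 52.7% of 3RHet, 52.8% of 3LHet, 59.9% of 2RHet and 64.4% of 2LHet were in runs, with median lengths of 650 to 700 bp, near the 700 bp of the centromere-side ends. The unplaced scaffolds U and Uextra were at 86.4% and 98.0%, and YHet, from a chromosome that females lack, at 98.9%.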

How the data were processed

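Of 6 labelled samples, 4 are used: 1 preimmune and 1 input library for each of 2 genotypes. Per the file headers, the deposited values are wiggle tracks over 100 bp windows. The authors' values are whole-number read counts per window and were not scaled. The submitters' processing notes name build dm3 and Partek 6.5. Not given in the sources used here are the aligner, how duplicates were handled and what was done with reads that match several places. That last step could decide which windows are at 0.

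Runs were found with Python 3.11.15 and numpy 2.4.6, and the code was tested on simulated data. Intervals are 95% exact Clopper-Pearson (scipy 1.17.1), and a count of 0 allows 3 reads. No test was made, since each group has 1 library. The members and rules were chosen with earlier results of these data known. Named regions are the 10 longest runs, the longest per arm, the 5 fullest bins of 1 Mb over 2 Mb from the centromere-side end, the 3 longest clustered stretches and the 3 longest spaces. Only full bins were ranked. Length ranges, examples, the lowest bin, the single windows and the genotype cases named were chosen after the values were seen. No dm3 sequence was used, so the planned sequence comparison is not reported. Alternatives covered run length, reads allowed, libraries required, joining, arm ends, count minimum and scaling.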

Additional observations from a re-analysis of the deposited data

How the results depend on the processing

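No paired analysis was possible because each group has 1 library, so the groups share fewer than 2 replicate numbers, and the labels give none. No fit over both genotypes was made. Of the main results, counting single windows as runs moved the number from 2905 to 6880 and the density on chromosome 4 from 62.9 to 160 per Mb. Other settings kept the number within 1.5 times. Chromosome 4 had the most and 3R the fewest runs per Mb under all 11 alternatives. The percent of windows in runs, 5.95%, was 6.36%, 6.10% and 5.74% with runs of at least 1, 2 and 5 windows, 6.12% and 6.39% with up to 1 and up to 4 reads allowed, 6.05%, 6.03% and 6.00% without wild-type preimmune, wild-type input and su(Hw)f input, 6.00% with runs joined across a single window, and 5.68% without the outer 100 kb of each arm. The percent of large-arm run length within 2 Mb of the centromere-side end, 31.3%, was 32.0%, 31.8% and 30.6% with at least 1, 2 and 5 windows, 32.0% and 32.5% with 1 and 4 reads, 31.7% without wild-type preimmune and 29.9% without arm ends. Beside runs, a median-ratio scaling left mutant preimmune above input in 7.37% of windows (4.21% of all) and below it in 3.58% (5.46% of all). A minimum of 50 counts gave 4.37% for windows lower in mutant input (1.98% of all). The cause was not tested. Depth limits the shortest runs most.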

Other observations

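The mitochondrial scaffold, 196 windows, held 0 reads in all 4 libraries. A count of 0 allows up to 3 reads in each. Why it was empty was not tested.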
